A study of Mus musculus with 8 samples.

Results

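Among 34499 hepatoma cells from mouse tumours, 5176 cells with the highest levels of genes of the G2 and M phases of the cell cycle were described. They were 5176 of the 53528 cells in the deposited table. Hepatoma cells were those with a mean deposited value of at least 1 over Krt8, Afp and Alb, which encode a keratin and the liver proteins alpha-fetoprotein and albumin, and a mean below 0.5 over the T cell genes Cd3g and Trbc2 and the myeloid genes Tyrobp and Fcer1g. Within each of 6 sets of cells, the hepatoma cells were ranked by their mean value of Ube2c, Cenpf, Ccnb1, Aurka, Plk1, Tpx2, Cdc20 and Hmmr, and the top 15% were taken. They are called G2/M-high cells here, and the remaining 29323 are called the other hepatoma cells. Because measured values chose the cells, every difference from the other hepatoma cells is a description of the chosen cells, and no test was made.

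The tumours grew from Hepa1-6, an established mouse hepatoma line, and were dissociated and profiled by droplet 3′ single-cell RNA sequencing. The labels give 8 entries in 4 groups, a cDNA and an oligo library for each, so the 2 entries of a group are kinds of library and not replicates. The groups are unedited cells with PBS injected into the peritoneum, unedited cells with an antibody against PD-1, Soat1-edited cells with PBS, and Soat1-edited cells with the antibody. PD-1 is a receptor that restrains T cells, and Soat1 encodes an enzyme that esterifies cholesterol. The labels call the edited line a knockout in titles and a knockdown elsewhere. Host strain, age, number of tumours and whether an edited line was 1 clone are not given in the sources used here. The number that ends each cell name makes 6 sets, and no label ties a set to a group, so genotypes and treatments were not compared and the sets are treated as samples of unknown group. The cell names hold running numbers and no barcode sequence, so barcodes shared between sets could not be counted. Soat1 is not among the 2000 genes of the table used here, so the edit was not checked.

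In G2, after DNA replication, a cell accumulates cyclin B and CDK1, and their activity drives entry into mitosis. The mitotic kinases Aurora A and PLK1 and the microtubule protein TPX2 then build the spindle, kinetochores such as those holding CENPF attach chromosomes to it, and the anaphase-promoting complex, with its activator CDC20 and its partner enzyme UBE2C, destroys cyclin B and ends mitosis. Many of these genes are transcribed together late in the cycle through promoters that carry a cell cycle genes homology region, abbreviated CHR, and CCAAT boxes that bind NF-Y.

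Promoter sequences are shown first because the genes that chose the cells and the genes higher with them are known for this shared promoter structure. The lines give the 120 bases before the RefSeq start site (build GRCm38.p6), 5′ to 3′ in the direction of transcription, for 3 genes of the rule, for Cdk1 and Top2a, and for Bnip3, a gene lower in the chosen cells. In the first 5, capitals mark CCAAT on either strand (ATTGG on the strand shown) and the CHR letters TTTGAA or TTCGAA on either strand (TTCAAA for TTTGAA on the strand shown). In Bnip3, capitals mark ACGTG on either strand, overlapping copies run together, a core bound by hypoxia-inducible factors and other proteins, and other motifs, among them a CCAAT, are left in lower case. The Cdk1 window also holds an ACGTG, left in lower case there.
Ube2c, chr2:164769809-164769928, plus strand: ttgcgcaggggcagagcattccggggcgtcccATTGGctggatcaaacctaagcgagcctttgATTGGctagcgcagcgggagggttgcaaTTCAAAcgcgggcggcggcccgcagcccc
Cdc20, chr4:118437344-118437463, minus strand: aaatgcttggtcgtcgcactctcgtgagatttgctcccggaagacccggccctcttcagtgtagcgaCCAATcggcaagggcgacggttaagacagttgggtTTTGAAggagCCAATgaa
Ccnb1, chr13:100786487-100786606, minus strand: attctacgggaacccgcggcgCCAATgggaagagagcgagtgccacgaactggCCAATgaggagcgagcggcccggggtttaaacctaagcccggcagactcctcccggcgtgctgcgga
Cdk1, chr10:69352913-69353032, minus strand: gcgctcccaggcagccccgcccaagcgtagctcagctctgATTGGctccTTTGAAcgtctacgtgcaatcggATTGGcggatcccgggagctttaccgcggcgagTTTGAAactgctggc
Top2a, chr11:99024190-99024309, minus strand: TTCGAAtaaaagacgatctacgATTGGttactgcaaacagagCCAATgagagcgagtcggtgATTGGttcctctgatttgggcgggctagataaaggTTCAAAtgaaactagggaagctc
Bnip3, chr7:138909507-138909626, minus strand: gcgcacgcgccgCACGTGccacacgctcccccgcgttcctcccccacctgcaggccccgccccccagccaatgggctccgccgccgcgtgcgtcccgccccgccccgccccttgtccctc
The Ccnb1 window holds 2 CCAAT boxes and no CHR letters, and the Cdk1 window holds 2 of each. A match is a match of letters only.

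Over the longer RefSeq windows, from 250 bases before to 50 bases after the start, CHR letters were in 19.2% of all 32851 promoters and CCAAT in 37.4%. Of the 7 promoters matched for the 8 rule genes, 6 held CHR letters and 7 held CCAAT. The genes called higher in G2/M-high cells, defined below, had 64 matched genes outside the rule with 73 promoters. Of these promoters, 37 held CHR letters (50.7%, exact binomial 95% interval 38.7 to 62.6) and 51 held CCAAT (69.9%, 58.0 to 80.1). Both motifs together were in 42.5% of the 73 and in 7.52% of all promoters. Among the 1704 promoters matched to the measured genes, 21.3% held CHR letters, 38.1% held CCAAT and 9.21% held both. CCAAT alone was about as frequent in promoters of other genes of these results: 13 of 19 (68.4%) for a list of hypoxia and glycolysis genes and 3 of 4 for the genes called lower, while CHR letters were in 3 of those 19 (15.8%). ACGTG, searched after the values had been seen, was in 19.6% of all promoters and in 12 of the 19 promoters of the hypoxia and glycolysis list, from 13 matched genes (63.2%). It was in 19 of the 73 promoters of genes called higher outside the rule (26.0%) and in 1 of the 4 of genes called lower. These intervals cover counting error only, and promoters of 1 gene can overlap. Of the 85 genes called higher, 71 were matched to the RefSeq table, and of the 6 called lower, 3 were.

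The 6 sets held 7285, 5021, 8297, 3772, 5751 and 4373 hepatoma cells in the order of their numbers, and 1093, 753, 1245, 566, 863 and 656 G2/M-high cells. Hepatoma cells made up 48.4% to 77.7% of a set, and sets 4 and 6 had the lowest shares, 48.4% and 49.4%. The median of the mean over Krt8, Afp and Alb was 2.87 to 3.04 in G2/M-high cells and 2.94 to 3.08 in the other hepatoma cells of a set. Cells outside the hepatoma gate had medians of 1.17 to 1.26, which lie above the gate level of 1 and below the level of either hepatoma class. Both hepatoma classes had to pass the gate on these 3 genes, so their levels are a description, and the gate level itself also admits cells at the level seen outside it.

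UMI totals, the number of distinct transcript molecules counted in a cell, could be worked out for set 1 only. There the median G2/M-high cell had 25333 UMIs and the median other hepatoma cell 13982 UMIs, a ratio of 1.81. These totals also count UMIs of genes without deposited values. Genes with deposited values held 14.8% of the UMIs in G2/M-high cells and 15.1% in the other hepatoma cells. Detected genes were counted among genes with deposited values only, with medians of 535 in G2/M-high cells and 373 in the other hepatoma cells. From the hepatoma cells of lowest to those of highest UMI total in 4 equal parts, 8.84%, 9.77%, 14.9% and 26.5% were G2/M-high. A doublet caller marked 0.549% of G2/M-high cells and 0.840% of the other hepatoma cells. The number after the letter N in the cell names, whose meaning is not given in the sources used here, was 1 for 51.1% to 66.7% of G2/M-high cells and for 62.8% to 67.4% of the others. The part of depth, and of cells joined in 1 droplet, in the differences below was not tested, and values within ranges of depth are given for some genes.

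Because the top 15% was taken in each set, the lowest score that admitted a cell differed between sets. It was 0.737, 0.748, 0.643, 0.387, 0.807 and 0.553 natural log units in sets 1 to 6, and the highest score left out was 0.737, 0.747, 0.643, 0.387, 0.806 and 0.551. At 1 fixed level for all sets, 0.650, the shares of hepatoma cells at or above it were 16.6%, 16.9%, 14.7%, 7.53%, 18.8% and 12%. Set 4 had the lowest share and set 5 the highest, a description of the score that chose the cells, with each set counting as 1 unit and no test between sets. Without the cells that carried markers of other cell types, described below, the shares at the level drawn again were 16.4%, 16.8%, 14.2%, 7.90%, 18.6% and 12.1%. With no map from sets to groups, nothing can be said of genotype or treatment from this order, and sets 2 to 6 were changed by a step that is not given in the sources used here.

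Ube2c, whose product joins ubiquitin to cyclin B for the anaphase-promoting complex, had the largest difference of mean values of the 8 rule genes, though Cenpf and Hmmr had larger ratios of counts in set 1. Its mean value in sets 1 to 6 was 2.18, 2.21, 2.03, 1.77, 2.27 and 1.82 in G2/M-high cells and 0.47, 0.51, 0.47, 0.38, 0.51 and 0.44 in the other hepatoma cells. In set 1 this was 921 against 83.1 CPM (UMIs of the gene per 1000000 UMIs of the class), a ratio of 11.1 (exact Poisson 95% interval 10.8 to 11.3). All 6 values of the chosen cells lay above all 6 of the others.

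Cenpf, a kinetochore protein, had means of 1.1, 1.08, 0.90, 0.67, 1.11 and 0.76 in G2/M-high cells and 0.09 to 0.13 in the others. Hmmr, which organises spindle microtubules, had 0.63, 0.63, 0.48, 0.38, 0.65 and 0.48 against 0.04 to 0.07. The ratios of CPM in set 1 were 13.9 for Cenpf (244 against 17.6) and 12.4 for Hmmr (107 against 8.68). For both genes set 4 was the lowest of the chosen cells and set 5 the highest, the order seen in the score.

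The cyclin Ccnb1 had means of 0.58 to 0.98 in G2/M-high cells and 0.07 to 0.14 in the others. The kinases Aurka and Plk1 had 0.62 to 1.03 against 0.10 to 0.15, and 0.59 to 0.93 against 0.08 to 0.13. Tpx2, the spindle assembly factor that activates Aurora A, had 0.86 to 1.29 against 0.14 to 0.25, and Cdc20, the activator of the anaphase-promoting complex, 0.75 to 1.16 against 0.16 to 0.24. Set 1 ratios of CPM were 10.9 for Ccnb1, 10.3 for Aurka, 10.6 for Plk1, 7.98 for Tpx2 and 6.86 for Cdc20. For each of these genes too, the lowest of the chosen cells' means was in set 4.

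**Figure D1:**
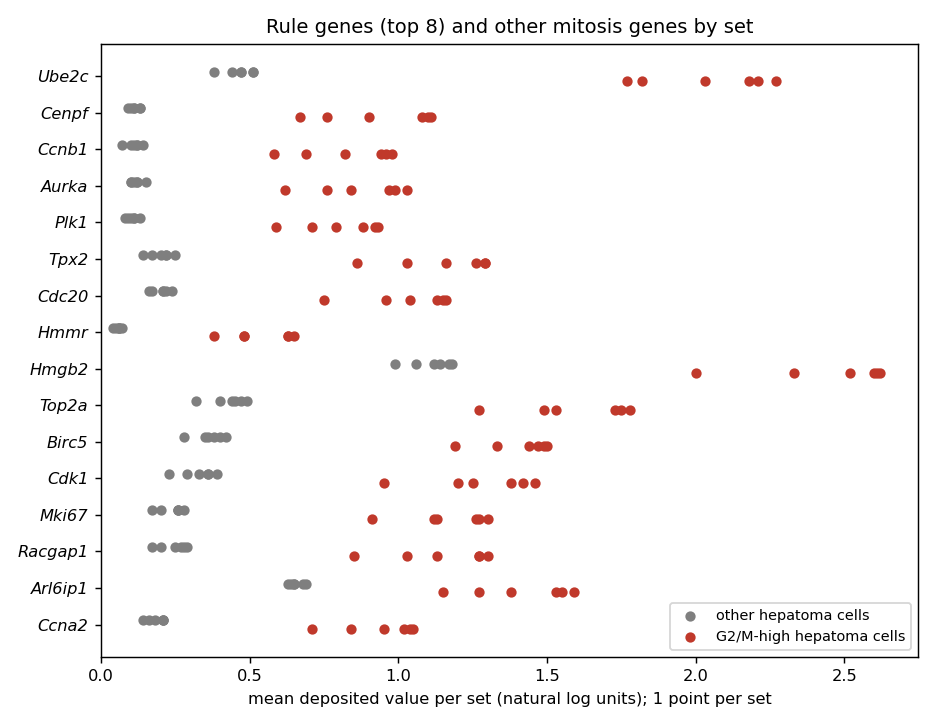
Mean deposited value (natural log units, x axis) of the 8 rule genes and 8 other mitosis genes (y axis) in G2/M-high cells (red) and the other hepatoma cells (grey), 1 point per set. For each of the 16 genes every red point lies to the right of every grey point, as for Ube2c at 1.77 to 2.27 against 0.38 to 0.51.

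When each rule gene was left out and the cells were chosen by the remaining 7, 92.7% to 96.7% of the cells were the same. The left-out gene's difference of means, median over the sets, was then 1.49 for Ube2c, 0.91 for Tpx2, 0.80 for Cenpf, 0.78 for Cdc20, 0.74 for Aurka, 0.70 for Ccnb1, 0.67 for Plk1 and 0.47 for Hmmr. In set 1, 63.6% of G2/M-high cells had a UMI of all 8 genes, against 1.89% of the other hepatoma cells, and 1239 of the 6192 others had none. Among hepatoma cells the median correlation over the 28 pairs of rule genes was 0.45 to 0.59 by set, and within the chosen cells it was 0.09 to 0.32, a description over cells that share library and depth and were selected on these genes.

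Free RNA in droplets and depth both bear on shares of cells with a UMI. In set 1, Ube2c was seen in 98.4% of G2/M-high cells, 55.5% of the other hepatoma cells and 24% of 555 myeloid cells, whose median total was 2773 UMIs, while Cenpf was seen in 89.2%, 21.0% and 5.05%. With each cell thinned to 5000 UMIs, leaving out 92 G2/M-high and 1008 other hepatoma cells below that, Ube2c was in 91.7% against 28.6% and Cenpf in 64.2% against 7.14%. Both genes took part in the choice of cells, so these shares are a description only.

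A gene was called higher or lower where the difference of mean values, G2/M-high minus other hepatoma cells, was at least 0.25 natural log units with the same sign in all 6 sets. By this rule 85 of 2000 genes (4.25%) were higher, 8 of them the rule genes, and 6 (0.300%) were lower. The median difference over all 2000 genes was -0.001. Of all 2000 genes, 517 had higher means in every set and 694 had lower means in every set, whatever the size. Of the 77 genes higher outside the rule, 51 were among 84 measured genes of lists of mitosis genes, 10 were S phase genes, 1 was Ccnd1 and 15 were in no list. All 84 mitosis genes had higher means in every set, 33 of them by less than the size called, and their median difference was 0.40 (0.30 to 0.44 by set).

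In set 1, summed UMIs gave ratios of CPM. With the whole 95% interval beyond 1.5-fold, 179 genes (8.95%) were higher and 400 (20%) lower, and 72 of the 85 and 6 of the 6 genes called on the deposited scale were among them. The median log2 ratio over all genes was -0.15. The lower count is less firm than the higher one: with cells thinned to 5000 UMIs it was 196, and without cells that carried markers of other cell types it was 213.

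Genes of chromosome condensation and chromatin had the highest median of the mitosis lists on the deposited scale, 0.65 (0.50 to 0.70), with 8 of 11 called higher. In set 1 counts their median log2 ratio was 2.04, below the 2.63 of the spindle list, 2.47 of the kinases, 2.40 of the kinetochore list and 2.27 of the anaphase-promoting complex list. Hmgb2, a chromatin protein that bends DNA, had means of 2.62, 2.60, 2.52, 2.00, 2.61 and 2.33 in G2/M-high cells in sets 1 to 6 and 0.99 to 1.18 in the others, a median difference of 1.39. Top2a, the topoisomerase that untangles sister chromatids, had 1.73, 1.75, 1.53, 1.27, 1.78 and 1.49 against 0.32 to 0.49, a median difference of 1.19. Set 1 ratios of CPM were 4.25 (4.19 to 4.3) for Hmgb2 and 6.59 (6.45 to 6.74) for Top2a. Mki67, the proliferation marker that coats mitotic chromosomes, the histone variant H2afz and the condensin subunits Smc4 and Smc2 had median differences of 0.96, 0.88, 0.76 and 0.65. None of these 6 genes took part in the choice of cells, but all come from the same cells, so their differences carry no independent support.

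Of the spindle motors and microtubule proteins, 20 of 30 were called higher, with a median of 0.47 (0.34 to 0.54). Racgap1, part of the centralspindlin complex of the dividing midzone, had means of 1.27, 1.27, 1.13, 0.85, 1.30 and 1.03 against 0.17 to 0.29, and a set 1 ratio of 6.19 (5.99 to 6.40). Its partner Kif23 had a median difference of 0.69, the midzone bundler Prc1 0.71, and the chromosome-arm motor Kif22 0.70. The tubulins Tuba1b and Tubb4b and the tubulin-binding Stmn1 had 0.88, 0.79 and 0.72. The ratio of CPM in set 1 was 2.28 for Tuba1b and 9.21 for Kif23, so the order of ratios differs from that of differences on the log scale.

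For the kinetochore, centromere and passenger complex list, 10 of 18 genes were called higher (median 0.34, 0.26 to 0.39). Birc5, the passenger protein survivin, had means of 1.49, 1.47, 1.44, 1.19, 1.5 and 1.33 against 0.28 to 0.42, and a set 1 ratio of 5.22 (5.07 to 5.37). The centromeric histone Cenpa differed by 0.74, the kinetochore motor Cenpe by 0.63, and the passenger subunits Cdca8 and Incenp by 0.62 and 0.61. Again every set's mean of the chosen cells exceeded every set's mean of the others for these 5 genes, and the share of all genes for which this holds is not given here.

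Mitotic cyclins and CDK control genes were called higher in 4 of 9 cases (median 0.34, 0.28 to 0.40). Cdk1, the kinase of mitotic entry, had means of 1.38, 1.42, 1.25, 0.95, 1.46 and 1.20 against 0.23 to 0.39, with a set 1 ratio of 5.82 (5.66 to 5.98). The CDK-binding proteins Cks2 and Cks1b and cyclin A2, Ccna2, had median differences of 0.81, 0.68 and 0.78. Ccnb2, the second B-type cyclin, had a median difference of 0.34 but 0.23 in its lowest set, and so was not called. Of the mitotic kinases and checkpoint genes 6 of 7 were called higher (median 0.38), including Bub1b at 0.44, Aurkb at 0.43 and Nek2 at 0.43. In the list named for the anaphase-promoting complex and proteolysis 3 of 9 were called (median 0.28): Arl6ip1 at 0.81, Cdca3 at 0.74 and the securin Pttg1 at 0.68. Arl6ip1 is counted with the list as drawn up and is not taken here as a part of that complex.

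The 15 higher genes in no list were Ccdc34, Knstrn, H1f0, Dtymk, Lockd, Dbi, Cacybp, Tceal9, Hspe1, Lmna, Cycs, Ppp1r14b, Phgdh, Serpinb7 and Lect2, named here after their values were seen. Their median differences ran from 0.62 for Ccdc34 to 0.27 for Lect2. Knstrn encodes a spindle and kinetochore protein and Dtymk a kinase of thymidine nucleotide synthesis, while Lmna encodes nuclear lamins.

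**Figure D2:**
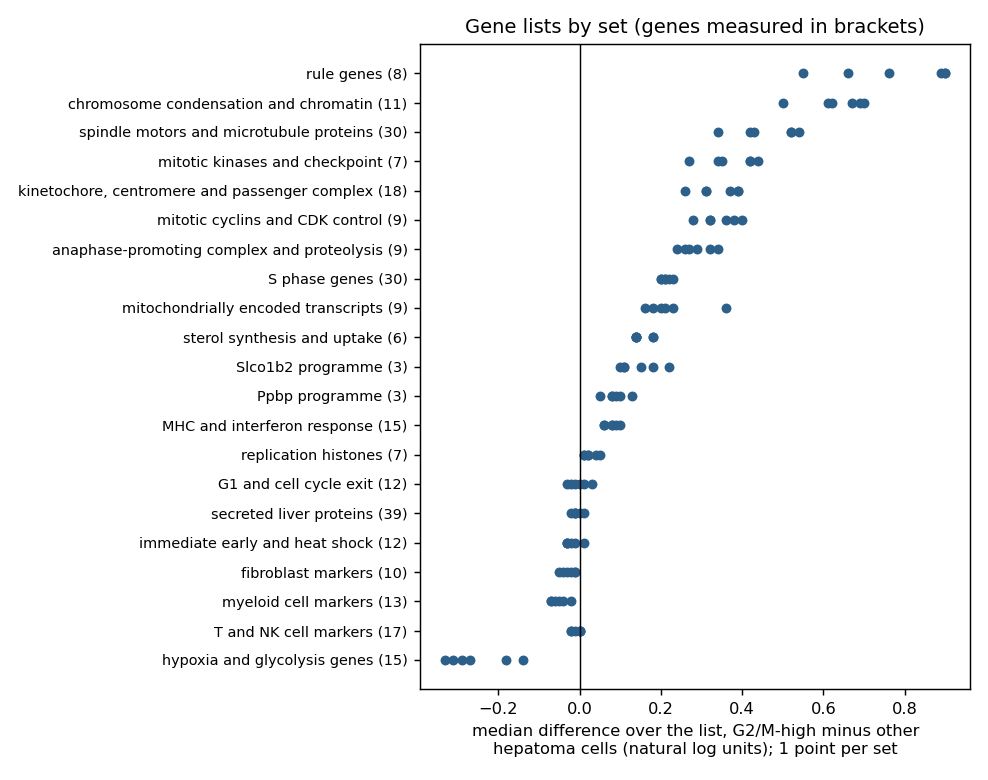
Median difference of mean values over each gene list, G2/M-high minus other hepatoma cells (natural log units, x axis), 1 point per set, with the number of measured genes in brackets. The mitosis lists lie to the right, S phase genes at 0.20 to 0.23, and hypoxia and glycolysis genes to the left at -0.33 to -0.14.

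S phase genes, which serve DNA replication, were called higher in 10 of 30 cases, with a median difference of 0.21 (0.20 to 0.23). Rrm1, a subunit of ribonucleotide reductase, had means of 0.90 to 1.04 against 0.32 to 0.47. The helicase subunit Mcm7 had 0.85 to 1.07 against 0.37 to 0.54, and the sliding clamp Pcna 0.99 to 1.11 against 0.57 to 0.71. Set 1 ratios of CPM were 2.67 for Rrm1, 2.13 for Mcm7 and 1.52 for Pcna. The 7 measured replication histone genes had a median difference of 0.02 and none was called.

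Of the G2/M-high cells, 41.9% were also in the top 15% of their set by mean S phase gene value. The exact binomial interval, 40.6 to 43.3, covers counting error over the pooled cells and leaves out the spread between sets. By set the share was 41.8%, 38.6%, 35.5%, 66.3%, 31.3% and 51.2%. Set 4, with the lowest entry score, had the highest share, and set 5, with the highest entry score, the lowest. In set 4 the 284 chosen cells at or above the fixed score of 0.650 had a share of 80.3%, and the 282 below it 52.1%. In set 3 the shares were 35.2% of 1223 at or above it and 54.5% of 22 below, and in set 6 they were 50.9% of 525 and 52.7% of 131. The chosen cells were therefore not free of high S phase gene values, and in set 4 most were in the top 15% by S phase score. That is a rank within the set. From the 85th to the 95th percentile of the G2/M score, the mean S phase value was 0.39 in set 4 and 0.44 to 0.46 in the other sets. Above the 95th it was 0.42 in set 4 and 0.40 to 0.43 in the others. Whether cells high in both were in S phase, G2 or M was not tested, so they cannot be taken as purely G2 or M cells.

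Along the G2/M score, hepatoma cells of each set were divided at its 50th, 70th, 85th and 95th percentiles, and the G2/M-high cells are the top 2 bands. Top2a had medians over the sets of 0.29, 0.43, 0.97, 1.45 and 1.96 from the lowest band to the highest, and Arl6ip1, whose RNA is known to be high around mitosis, 0.60, 0.65, 0.80, 1.26 and 1.85. Arl6ip1 thus changed little below the 85th percentile, while Top2a was already higher from the 70th. Pcna was highest in the bands from the 70th to the 95th percentile, with medians of 0.53, 0.68, 1.11, 1.08 and 0.92. Cyclin E2, Ccne2, which acts at entry into S phase, had 0.08, 0.13, 0.27, 0.18 and 0.12, highest just below the chosen cells. In set 4 its highest band was instead the 85th to 95th percentile, at 0.24, and Pcna there was 1.05 against 0.72 in the band below. Krt8, Alb and Afp, used by the hepatoma gate, had band medians of 2.18 to 2.30, 2.92 to 3.14 and 3.34 to 3.48. The median UMI total in set 1 went from 13490 to 13991, 15472, 23550 and 28958 over the bands, and its part in these levels was not tested.

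**Figure D3:**
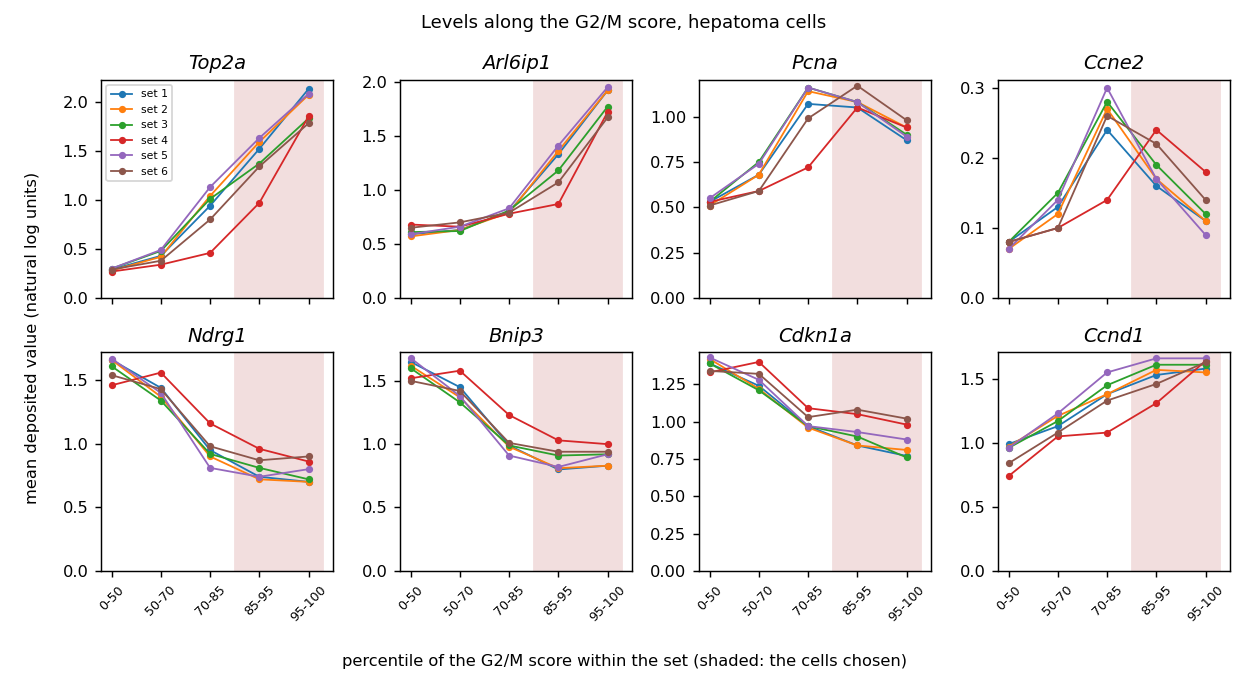
Mean deposited value (natural log units, y axis, own scale for each gene) of 8 genes in 5 bands of the G2/M score within each set (x axis, percentiles), 1 line per set, with the chosen cells shaded. Ccne2 is highest at the 70th to 85th percentile in 5 sets and at the 85th to 95th in set 4, and Ndrg1 is lower from the 70th percentile on.

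Within the chosen cells, the mean of Cdc20, Plk1, Ccnb1, Aurka and Ube2c minus that of Cenpf, Hmmr and Tpx2 divided each set into 2587 later-type and 2589 earlier-type cells in all. By the same rule 1 gene was called higher in the later-type cells (0.0500% of 2000), Ube2c, and 1 lower (0.0500%), Tpx2, and both define the division. No gene outside the 8 was called in either direction. Mki67 was 0.20 lower in the later-type cells (0.17 to 0.26 lower by set), Alb 0.22 lower, and Birc5 and Cks2 were each 0.14 higher. Other genes higher in the later-type cells, named after their values were seen, were Fam25c at 0.24, the metallothionein Mt2 at 0.20, Ly6a at 0.19 and the apolipoprotein Apoc2 at 0.18, none called. In set 4 Fam25c differed by 0.00 and Mt2 by -0.00. The 9 mitochondrially encoded transcripts had list medians of -0.20 to -0.11 by set. In set 1 the later-type cells had a median of 23014 UMIs and the earlier-type 28130, which was not matched here.

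Genes lower in the G2/M-high cells were few on the deposited scale. Ndrg1, a gene induced by low oxygen, had means of 0.73, 0.71, 0.78, 0.93, 0.76 and 0.88 in sets 1 to 6 against 1.49, 1.46, 1.42, 1.43, 1.46 and 1.41, a median difference of -0.67. Bnip3, a hypoxia-induced receptor for the removal of mitochondria, had 0.81, 0.82, 0.91, 1.02, 0.85 and 0.94 against 1.48, 1.44, 1.43, 1.48, 1.47 and 1.40, a median difference of -0.57. For both genes every set of the chosen cells lay below every set of the others. Set 1 ratios of CPM were 0.181 for Ndrg1 (126 against 694, interval 0.176 to 0.187) and 0.256 for Bnip3 (152 against 591, interval 0.249 to 0.264).

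Hmox1, the enzyme that breaks down haem, had means of 0.20, 0.21, 0.24, 0.45, 0.18 and 0.29 in sets 1 to 6 against 0.59 to 0.83, a median difference of -0.42. Its set 1 ratio of CPM was 0.193 (0.180 to 0.206). The 2 groups of set means did not overlap. Hmox1 was among the 0.300% of genes called lower, which is a share by the size of the difference and not by overlap. The share of all genes without overlap is not given here, for Hmox1 or for the other genes so described.

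Tmsb4x, an actin-binding peptide abundant in blood cells, had 0.76 to 1.24 against 1.07 to 1.73, and H2-K1, a class I antigen-presenting molecule, 0.34 to 0.93 against 0.64 to 1.33. Their median differences were -0.37 and -0.35, and their ranges over the sets overlapped. The myeloid markers moved with these: cells with a mean of at least 0.5 over 8 myeloid markers made up 0.116% to 11.8% of G2/M-high cells of a set and 6.77% to 18.2% of the others. Their summed level in set 1 was 58.5 against 156 CPM, 7 of 8 were lower in every set, none was called, and none was at 0 in set 1. A longer list of 13 myeloid genes summed to 3316 against 3265 CPM, with 11 lower and 1 higher in every set. A longer list of 10 fibroblast genes summed to 318 against 428 CPM, with 7 lower and 1 higher in every set. Of all 2000 genes, 694 were lower and 517 higher in every set. For 4 fibroblast markers the shares of cells with a mean of at least 0.5 were 0.695% to 1.77% against 1.85% to 4.99% (summed 59.9 against 152 CPM in set 1). For 7 T and NK markers they were 0.348% to 2.12% against 0.736% to 4.43% (43.0 against 47.1 CPM). The 2 endothelial markers measured summed to 0.784 against 1.55 CPM.

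With the 4320 hepatoma cells that reached 0.5 for any of these marker sets left out and the top 15% taken again, an alternative added after seeing the data, H2-K1 differed by -0.08 and neither it nor Tmsb4x was called. Ndrg1 differed by -0.76, Bnip3 by -0.66 and Hmox1 by -0.37, and these 3 were still called. In all 17 genes were then lower, 4 of them shared with the 6, and 86 higher, 77 shared with the 85. The 13 added were Igfbp3, Cited2, Rnf128, Hilpda, Igfbp1, Cdkn1a, Mt1, Efna1, Egln3, Pgk1, Fgl1, Ero1l and Mt2, at -0.52 to -0.32.

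The list of hypoxia and glycolysis genes had a median difference of -0.28 (-0.33, -0.29, -0.27, -0.18, -0.31 and -0.14 in sets 1 to 6), against -0.001 for all genes. Of its 15 measured genes 13 had lower means in every set, but only Ndrg1 and Bnip3 were called. Hilpda, a lipid droplet protein, had 0.84 to 1.13 against 1.28 to 1.38, and Vegfa, the vessel growth factor, 0.67 to 0.81 against 0.97 to 1.09. Both missed the rule in sets 4 and 6, at -0.24 and -0.21 for Hilpda and -0.24 and -0.16 for Vegfa. Eno1, an enzyme of glycolysis, went the other way, with a median difference of 0.12. In set 1 counts 13 of 15 were lower and the list's median log2 ratio was -1.26, against -0.15 for all genes.

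Just 1.26% of the G2/M-high cells were in the top 15% of their set by mean hypoxia gene value. The exact interval, 0.970 to 1.60, covers counting error over the pooled cells and leaves out the spread between sets. By set the share ran from 0% of 753 in set 2, which allows a share of up to 0.489%, to 3.71% in set 4. The lower levels did not begin at the chosen cells. Ndrg1 had band medians of 1.64, 1.41, 0.93, 0.77 and 0.76 from the lowest to the highest band of the G2/M score, and Bnip3 1.61, 1.40, 0.99, 0.86 and 0.92, so most of the fall lay below the 85th percentile.

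**Figure D4:**
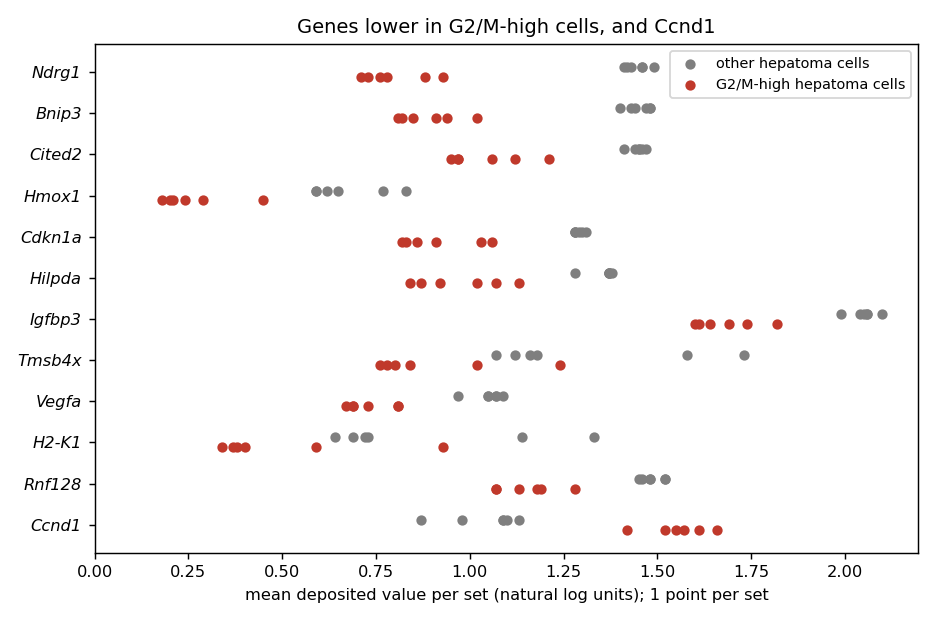
Mean deposited value (natural log units, x axis) in G2/M-high cells (red) and other hepatoma cells (grey), 1 point per set, for 11 of the 12 genes with the lowest median difference and Ccnd1. Ndrg1, at 0.71 to 0.93 against 1.41 to 1.49, shows no overlap, while Tmsb4x and H2-K1 overlap.

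Cell cycle exit and G1 genes did not move as 1 list: of 12 measured, 5 were higher and 5 lower in every set, with a median near 0. Cdkn1a, the inhibitor p21, had 0.82, 0.83, 0.86, 1.03, 0.91 and 1.06 against 1.28 to 1.31, a median difference of -0.41, and missed the rule in set 6 alone, at -0.22. Ccnd1, cyclin D1 of G1, went the other way. It had means of 1.55, 1.57, 1.61, 1.42, 1.66 and 1.52 in G2/M-high cells against 1.09, 1.1, 1.09, 0.87, 1.13 and 0.98, a median difference of 0.52, and all chosen sets lay above all others. Yet its set 1 ratio of CPM was 1.31 (1.29 to 1.33), below the size called in counts. Within the 4 parts of the UMI total, from lowest to highest, that ratio was 1.85, 1.55, 1.5 and 1.16.

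The same ratio was taken for other genes within the 4 parts, each of which still spans a range of depth, up to 28991 to 261833 UMIs in the last. From the lowest to the highest part of the UMI total the ratio for the rule gene Cenpf was 15.4, 18.0, 13.4 and 13.2, and for Top2a 5.74, 7.67, 7.0 and 6.00. For Ndrg1 it was 0.25, 0.255, 0.176 and 0.191, and for Cdkn1a 0.415, 0.492, 0.333 and 0.383. At 5000 UMIs a cell, Ndrg1 was seen in 44.3% of G2/M-high and 70.8% of the other hepatoma cells, although without thinning the shares were 83.3% and 84.1%.

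**Figure D5:**
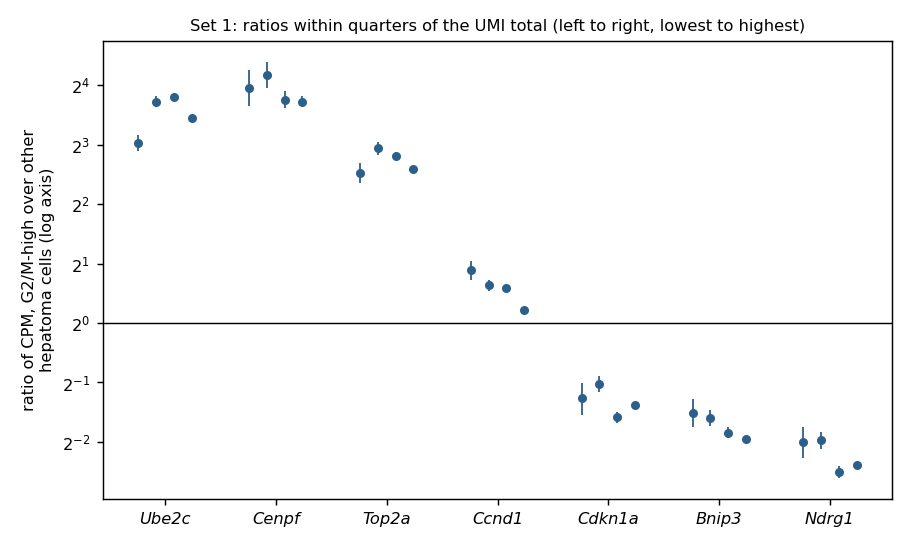
Ratio of CPM, G2/M-high over other hepatoma cells (log axis), for 7 genes in set 1, with 4 points a gene for the hepatoma cells of lowest to highest UMI total and bars for exact Poisson 95% intervals. Ccnd1 goes from 1.85 to 1.16, while Ndrg1 stays between 0.176 and 0.255.

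Genes that hepatocytes use for secreted proteins gave different pictures on the 2 scales. Their median difference on the deposited scale was -0.01 (-0.02 to 0.01), 4 of 39 being higher and 11 lower in every set, and none was called. In set 1 counts 24 of 39 were lower past 1.5-fold and the list's median log2 ratio was -0.73. It was -0.51 with cells thinned to 5000 UMIs and -0.36 when CPM was averaged over cells in place of summing UMIs. The 9 mitochondrially encoded transcripts were higher in every set (median difference 0.21, 0.16 to 0.36), none called, with a set 1 median log2 ratio of 0.27. Sterol synthesis and uptake genes, the pathway next to the edited enzyme, had a median difference of 0.14 over 6 genes and 0 called, with a set 1 median log2 ratio of 0.18.

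T cells of the same sets, taken as cells with a mean of at least 1 over Cd3g and Trbc2, were ranked by the same 8 genes. With hepatoma genes below 0.5 there were 1148 T cells and 172 chosen, 11 to 44 a set. Of 2000 genes, 25 (1.25%) were higher in all 6 sets, 23 of them also higher in hepatoma cells (27.1% of the 85). With hepatoma genes below 1, a gate added after seeing the data, there were 4196 T cells and 629 chosen, and 83 genes (4.15%) were higher. Of these 61 were shared with the hepatoma cells, 71.8% of the 85 and 73.5% of the 83. The 8 rule genes are among the 61, and 5 of them are among the 23, and they are shared because they ranked both cell types. All 11 condensation and chromatin genes were called in T cells with the wider gate and 5 with hepatoma genes below 0.5, against 8 in hepatoma cells.

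Genes called in 1 cell type could still differ in size in the other, and these differences between cell types were not tested. With the wider T cell gate, Pttg1 differed by 0.10 in T cells and 0.68 in hepatoma cells, H1f0 by 0.13 and 0.55, Tubb6 by 0.06 and 0.53, and Ccnd1 by 0.00 and 0.52. Stmn1 differed by 1.45 in T cells and 0.72 in hepatoma cells, and Pclaf, a PCNA-binding protein that was not called in hepatoma cells, by 1.31 and 0.26. The hypoxia and glycolysis list had a median of 0.01 in T cells. Ndrg1 was at 0.31 to 0.42 in the other T cells, against 1.41 to 1.49 in the other hepatoma cells, and differed by 0.01. Pgk1, an enzyme of glycolysis in the same list, was at 1.27 to 1.44 in the other T cells and differed there by 0.36 (0.22 to 0.46), against -0.31 in hepatoma cells.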

How the data were processed

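The deposited table holds 2000 genes and 53528 cells. Its values are on the natural log scale, as worked out from the deposited values, and no source used here states the last steps. Per the labels' protocols, UMIs were counted with PISA and cells chosen with DropletUtils, and per the submitters' processing notes reads were aligned with STAR 2.7.2b. The protocols name GRCh38 and the notes also mm10, so the build is unclear. None of the 53528 columns could be assigned to a sample, so the table was treated as 1 pooled sample and its 6 sets as samples of unknown group, with no p-values.

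In set 1 each value was the natural log of 1 plus UMIs per 10000, and whole UMIs were recovered for 100% of cells (tolerance 0.01). Sets 2 to 6 hold values below 0 from a further step that is not given in the sources used here, so counts, CPM and depth are from set 1 only. Differences are of mean values within a set, and set 1 log2 ratios have a pseudocount of 1 CPM. Exact intervals are at 95% and cover counting error only. Scrublet (in scanpy 1.11.5, with 6% expected) marked 91 of 9370 set 1 cells, 0.971%, as doublets, which stayed in except in an alternative. All scripts ran in Python 3.11.15 with numpy 2.4.6 and scipy 1.17.1. The set 1 ratio calls were tested on simulated counts, where the chosen cells were picked at random and so without the difference in depth. The rule on the deposited scale was not simulated.

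The cells, gene lists and tests were chosen with earlier results of these data known. Named genes are the 8 rule genes, the leading genes of each mitosis list, the 20 highest and 12 lowest genes outside the rule, and list genes against their list. Alternatives changed the share taken, gates, ranking genes, size called, sets, depth, doublets, average and pseudocount. 1 gene that these rules would name is not reported here.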

Additional observations from a re-analysis of the deposited data

How the results depend on the processing

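No paired analysis was possible because no cell set carries a group or replicate number, so genotypes and treatments could not be compared, with or without pairing. The comparison of G2/M-high with other hepatoma cells was made within each set and had no test. Counts of higher genes were 69 to 97 and counts of lower genes 4 to 12 under other shares, gates, ranking genes and name numbers, with 12 lower at a hepatoma gate of 1.5 and 11 at an immune gate of 0.25. With a difference of 0.15 they were 161 and 32, and with 0.5 they were 24 and 1. Leaving out each set in turn gave 85 to 99 higher and 6 to 13 lower genes, 13 without set 6. Alternatives added after seeing the data gave 19 lower genes at a hepatoma gate of 2 and 17 without cells carrying other cell types' markers. The S phase list's median was 0.23 with the top 20%.

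In set 1 counts, lower genes numbered 196 after thinning to 5000 UMIs, 162 with cells also chosen again, 227 with cells chosen within parts of the UMI total, and 213 without cells carrying other markers. Cells chosen within those parts gave median log2 ratios of 2.16 for mitosis, 0.82 for S phase and -1.05 for hypoxia genes. Thinning gave 2.47 for mitosis and -0.51 for secreted liver genes, or -0.42 with cells chosen again, and averaging over cells gave -0.36. A pseudocount of 0.1 CPM gave -1.31 for hypoxia and -1.03 for liver genes, and 10 CPM gave 1.89 for mitosis, 0.81 for S phase, -1.03 for hypoxia and -0.41 for liver genes. The UMI ratio was 1.61 by means. Shares in the top S phase cells were 22.9% and 60.5%, and in the top hypoxia cells 0.580% and 2.07%, with 10% and 20% taken. No listed median changed sign, and the cause of these moves was not tested.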
